A study of Mus musculus with 9 samples.

Results

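Ribosome biogenesis factors are the proteins that transcribe, modify, cleave and fold ribosomal RNA and assemble it with ribosomal proteins. A list of 44 such genes was followed across 3 groups of mouse B cells. Of these, 43 were rows of the deposited expression table, which holds 22178 genes, and Noc2l was not analysed here. The members and their lists were chosen by name, with earlier results of these data known. Of the members, 42 passed the filter on low values (a mean of at least 1 TPM over the 9 libraries). TPM is a gene's length-corrected share of all transcripts in a library, so it gives relative levels and no sequencing depth.

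B2B1 cells were peritoneal B cells of strain label B1-8VH12/Vk4, isolated about 30 days after their receptor had been switched by induction. B1 cells were peritoneal too and carry the same strain label. B2 cells, the conventional B cells, were splenic and have VH12B1-8/Vk4 as their strain label. All mice were on a backcrossed C57BL/6 background, and each group had 3 libraries of polyA RNA. Tissue, strain label and cell type change together against B2 and cannot be told apart. Whether each library had its own mouse is not stated. By the Ddx3y and Xist transcripts given below, B2B1 and B2 each held libraries that differed in sex, whereas B1 did not. The libraries of B2B1, and those of B2, thus did not all come from the same mouse. Whether libraries with the same sex reading shared a mouse was not tested. P-values therefore reflect only the variation among these libraries, which may be technical within B1 and between libraries of the same sex reading.

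Ribosome production starts in the nucleolus, where RNA polymerase I transcribes a long precursor RNA. Box C/D particles, with the core proteins Nop56, Nop58 and fibrillarin, methylate it, and box H/ACA particles convert uridines to pseudouridines. The small-subunit processome and the large-subunit assembly factors then cut and fold the precursor. The pathway is known to be raised in growing B cells and to be driven by the transcription factor Myc, which with its partner Max binds the E-box CACGTG.

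The E-box was looked for in RefSeq promoter windows of GRCm38.p6, from 250 bases before to 50 bases after the annotated start. It reads the same on both strands and was the only motif searched. Of the members, 38 of 43 had a window and 9 of these held the motif, which is 23.7%. The share was 18.9% of 95 other pathway genes, 12.1% of 8328 tested genes and 8.09% of all 27025 genes in the RefSeq table. A match is a description of letters and not evidence of binding. The stretches below show the motif in capitals with up to 10 bases on each side, 5′ to 3′ on the gene's strand.
Grwd1: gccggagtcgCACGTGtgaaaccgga
Imp4: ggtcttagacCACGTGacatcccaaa
Mybbp1a: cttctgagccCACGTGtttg
Nop2: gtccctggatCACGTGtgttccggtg
Pes1: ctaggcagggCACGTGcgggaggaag
Tsr1: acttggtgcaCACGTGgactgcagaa
Utp18: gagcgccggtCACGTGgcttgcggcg
Utp20: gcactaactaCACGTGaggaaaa
Wdr43: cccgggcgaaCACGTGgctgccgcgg
With the RefSeq start of the window counted as 1, the motif began at base 3 in Pes1, 18 in Wdr43, 25 in Tsr1, 35 in Grwd1, 38 in Utp20 and 41 in Mybbp1a. Gene starts in GENCODE M21 can lie elsewhere, as they do for Wdr43 and Grwd1. In Utp18, Nop2 and Imp4 it began before the start, at −20, −60 and −121. Of these 9 genes, Utp20 and Utp18 were called lower in B1 against B2, and Utp20 and Wdr43 in B2B1 against B2, in the tests given below. Each is 22.2%, against 33.9% of all tested genes in B1 and 42.0% in B2B1. Without B1 library 2, a library that stood apart, 8 were called lower in B1 and 6 in B2B1, against 35.4% and 44.1% of all genes. With median-of-ratios scaling none was called lower in either, against 22.9% and 28.6% of all genes.

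The 250 bases before the start are shown for Nop56, the member with the greatest difference between groups, and for Utp18, whose window holds the E-box there. The Nop56 stretch, at chr2:130274162-130274411 on the plus strand, has no CACGTG and a GC content of 65.2%. The Utp18 stretch, at chr11:93885767-93886016 on the minus strand, has 1 and a GC content of 63.2%.
Nop56: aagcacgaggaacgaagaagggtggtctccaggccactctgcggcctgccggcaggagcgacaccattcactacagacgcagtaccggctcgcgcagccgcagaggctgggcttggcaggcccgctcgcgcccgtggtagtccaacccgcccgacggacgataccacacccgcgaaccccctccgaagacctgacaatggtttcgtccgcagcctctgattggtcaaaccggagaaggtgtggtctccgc
Utp18: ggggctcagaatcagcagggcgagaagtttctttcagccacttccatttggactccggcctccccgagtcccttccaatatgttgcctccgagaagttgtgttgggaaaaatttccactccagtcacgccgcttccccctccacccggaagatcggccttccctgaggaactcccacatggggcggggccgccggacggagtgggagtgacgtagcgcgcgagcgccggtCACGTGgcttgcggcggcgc

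Some members also carry guide RNAs of the same pathway inside their gene bodies. In GENCODE M21 on GRCm38, 7 of the 43 members hold a small nucleolar RNA gene on their own strand, 21 in all, against 2.70% of the tested genes. Nop56 holds 5, Nop58 holds 4, and Ncl, Wdr43 and Gnl3 hold 3 each. Tsr1 holds 2 and Dkc1 holds 1. The table gives no separate value for reads of these RNAs, so what share of a host gene's TPM they add is not known.

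In the mean level of the factors, 1 library stood apart. The mean log2(TPM + 1) over the 42 members was 5.59, 5.62 and 5.62 in B2B1 libraries 1 to 3. It was 5.49, 5.99 and 5.55 in B1 libraries 1 to 3, and 5.74, 5.73 and 5.81 in B2 libraries 1 to 3. On the deposited values, B1 library 2 lay above the other 8 libraries, whereas B1 libraries 1 and 3 lay below all others. All values of a library summed to 894510 to 943040 TPM, and these totals were not made equal. The tested genes summed to 893400 TPM in B1 library 3 and to 941840 TPM in B2B1 library 1. Small gaps between libraries, such as that between these in the members' mean, therefore depend on the totals. Summed TPM of the 43 members were 3301 to 3424 in B2B1, 3097, 4040 and 3141 in B1 libraries 1, 2 and 3, and 3171 to 3352 in B2.

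**Figure D1:**
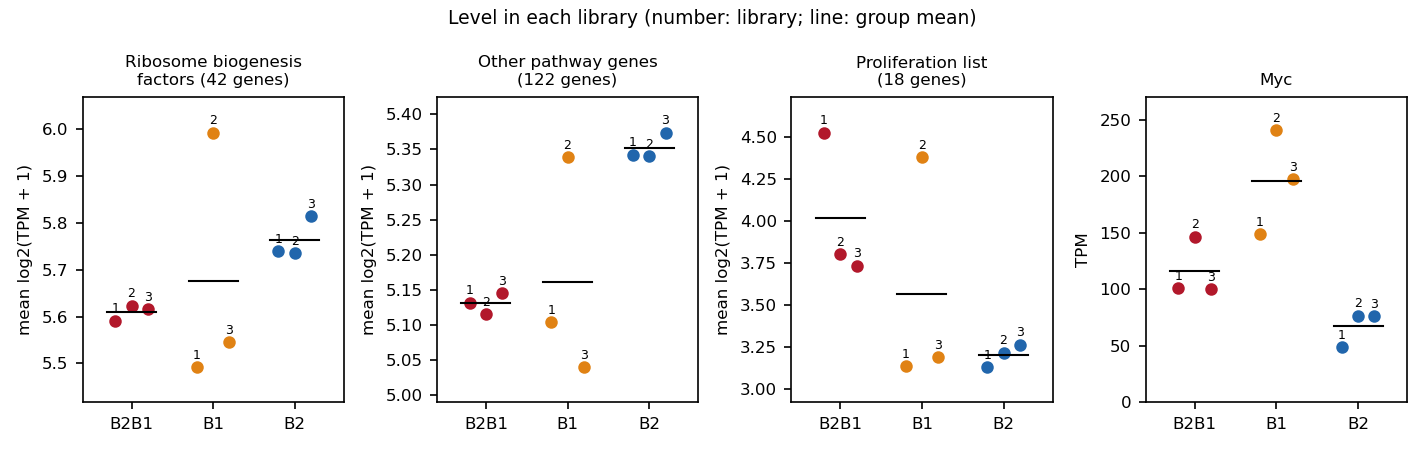
Level in each of the 9 libraries of B2B1, B1 and B2 cells: mean log2(TPM + 1) of the 42 ribosome biogenesis factors, of 122 other pathway genes and of 18 proliferation genes, and TPM of Myc. Points are libraries, numbered, and lines are group means; the first 3 axes do not start at 0. B1 library 2, at 5.99 for the factors, stands above B1 libraries 1 and 3 in every panel.

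B1 library 2 had the highest value of the 3 B1 libraries in 41 of 42 members, with Imp3 as the exception, against 41.9% of all tested genes. In 25 members, 59.5%, it had the highest value of all 9 libraries, against 9.46% of all tested genes. Its median log2 difference from the mean of B1 libraries 1 and 3 was 0.50 over the members, 0.25 over 122 other pathway genes and 0.03 over all tested genes. The excess ran from 1.02-fold for Imp3 to 1.86-fold for Gnl3, the GTPase nucleostemin, and was 1.81-fold for Polr1b and 1.69-fold for Rrp12. It was small for Rrp1 at 1.07-fold, Nop10 at 1.09-fold, Polr1a at 1.10-fold and Npm1 at 1.14-fold.

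Gnl3 shows the pattern. It stood at 56.2, 56.2 and 58.9 TPM in B2B1 libraries, at 42.1, 85.5 and 50.01 TPM in B1 libraries 1, 2 and 3, and at 56.3, 55.8 and 57.7 TPM in B2 libraries. B2B1 and B2 values overlapped, and the B1 values lay on both sides of them. The median SD of a member within its group, on the log2(TPM + 1) scale, was 0.06 in B2B1, 0.30 in B1 and 0.06 in B2, against 0.12, 0.14 and 0.09 over all tested genes. Between B1 libraries 1 and 3 alone it was 0.06. Members thus had smaller SDs than the typical gene except for B1 library 2. They were also more abundant, with a mean log2(TPM + 1) of 5.59 against 4.42 over all tested genes in B2B1 library 1. The SDs were not matched for level. Results on B1 are given with and without B1 library 2.

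Other measures moved with that library. Mki67, a marker of cycling cells, was at 28.2, 12.2 and 10.3 TPM in B2B1 libraries, at 2.98, 19.4 and 3.19 TPM in B1 libraries 1, 2 and 3, and at 1.10, 2.04 and 1.88 TPM in B2 libraries. Top2a, a topoisomerase of dividing cells, was at 31.3, 12.7 and 14.7 TPM in B2B1, at 4.34, 24.8 and 5.10 TPM in B1 and at 2.53, 3.84 and 3.57 TPM in B2. The mean log2(TPM + 1) of 18 proliferation genes was 4.38 in B1 library 2, compared with 3.14 in B1 library 1 and 3.19 in B1 library 3. It was 4.53 in B2B1 library 1, where the factors had a mean of 5.59 and a summed TPM of 3424, and 3.80 and 3.73 in B2B1 libraries 2 and 3, where they had means of 5.62 and 5.62 and summed TPM of 3409 and 3301. In bulk samples, fewer cells of a type and less RNA per cell cannot be told apart. The part of these genes in the result was not tested.

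**Figure D2:**
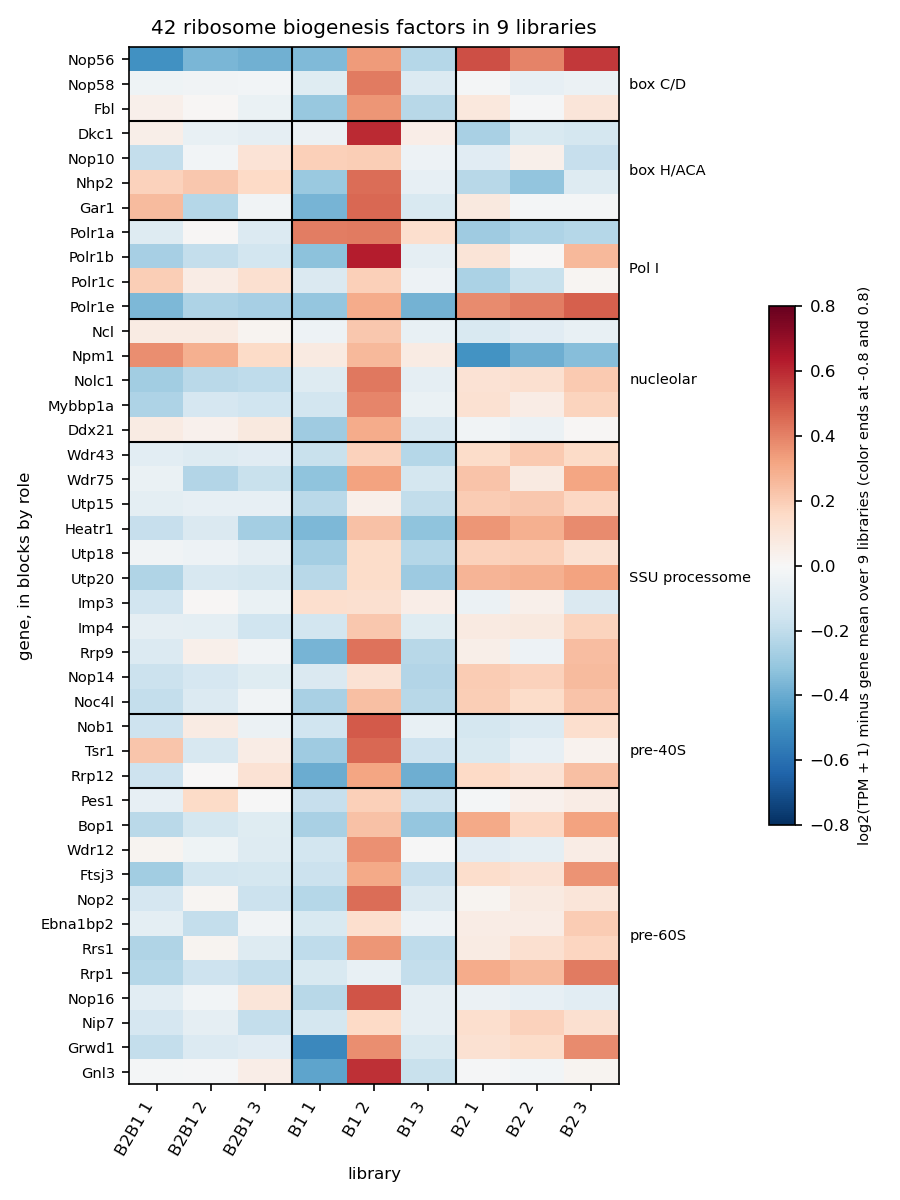
Each row is 1 of the 42 tested factors, in blocks by role, and each column a library, in the order B2B1, B1, B2. Color gives log2(TPM + 1) minus the gene's mean over the 9 libraries, red for higher, and B1 library 2 is red in most rows; Nop56, Polr1e and Rrp1 are highest in the B2 columns.

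The comparison of B2B1 with B2 addressed how cells with a switched receptor differ from conventional B cells. Nop56, a scaffold of the box C/D particle, was 53.1% of its B2 mean, whereas the nucleolar chaperone Npm1 was higher in B2B1. In all, 2 of 42 members were called higher and 12 lower (limma, Benjamini-Hochberg adjusted p under 0.05 over 11099 genes). Among all tested genes 21.0% were called higher and 42.0% lower, so the members' shares, 4.76% and 28.6%, were below both. Their median log2 fold change was −0.20, against −0.19 over all tested genes.

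B1 against B2 asked how natural B1 cells differ from conventional B cells, with 2 members called higher and 9 lower. The background was 18.0% higher and 33.9% lower, and the members' shares were 4.76% and 21.4%. Their median log2 fold change was −0.10, against −0.14 over all genes. Both comparisons use the same B2 libraries.

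Without B1 library 2 the counts changed. For B1 against B2 they became 2 higher and 27 lower, 64.3% of the members, against 18.1% and 35.4% of 11103 genes. The 27 included all 9 called before, and the members' median was −0.26, against −0.15 over all genes. The libraries of B2B1 against B2 stayed the same, but its spread is estimated together with B1. Its counts became 4 higher and 21 lower, 9.52% and 50%, against 22.2% and 44.1% of all genes.

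Because the median of all genes was below 0 in both comparisons, counts also depend on the scale. With TPM rescaled by median-of-ratios factors, which moves that median to about 0, 7 members were higher and 2 lower in B1 against B2, where the background was 24.9% and 22.9%. In B2B1 against B2, 7 were higher and 3 lower against 30.5% and 28.6%. With that scaling and without B1 library 2, an alternative chosen after seeing the data, 6 were higher and 12 lower in B1 against B2 (background 25.2% and 23.3%). For B2B1 against B2 the same alternative gave 14 higher and 7 lower (background 32.1% and 30.0%). The calls that held under TPM, median-of-ratios scaling and quantile normalization were Npm1 and Polr1a higher and Nop56 and Rrp1 lower in B1. In B2B1 they were Npm1 and Polr1c higher and Nop56, Polr1e and Rrp1 lower.

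**Figure D3:**
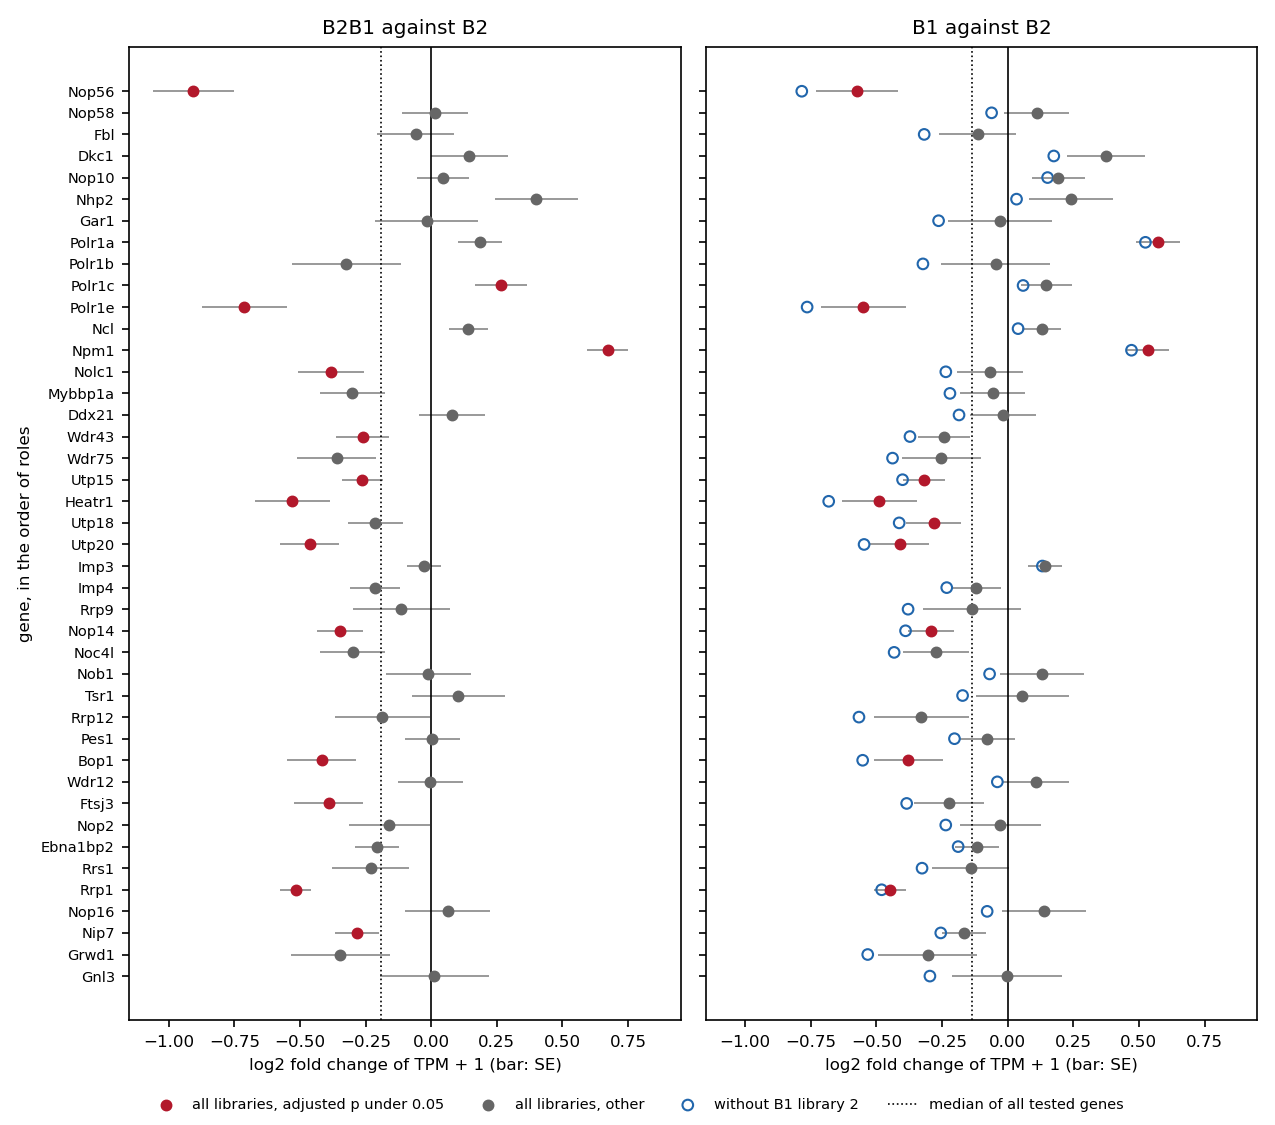
Log2 fold change of TPM + 1 for each of the 42 tested factors in B2B1 against B2 (left) and B1 against B2 (right), with bars for the SE from limma. Red points have an adjusted p under 0.05, open circles leave out B1 library 2, and the dotted line is the median of all tested genes. Nop56 lies farthest left in both panels, and in the right panel the open circles lie left of the filled points for most genes.

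Of the 3 box C/D core proteins, only Nop56 was called. It was at 100.3, 108.8 and 107.5 TPM in B2B1 libraries, at 110.2, 178.7 and 119.9 TPM in B1 libraries and at 202.0, 186.0 and 208.8 TPM in B2 libraries. All 6 peritoneal libraries lay below the 3 B2 libraries, and B2B1 lay below B1. The log2 fold change was −0.91 ± 0.155 in B2B1 against B2 (SE, limma adjusted p = 0.000826) and −0.57 ± 0.155 in B1 against B2 (adjusted p = 0.0126). Relative to the median of all genes these were −0.71 and −0.44. B2B1 against B1 did not pass (−0.33 ± 0.155, limma adjusted p = 0.165).

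Nop58, the partner of Nop56 in the particle, was at 74.9, 75.3 and 75.6 TPM in B2B1, at 71.6, 102.6 and 71.1 TPM in B1 and at 76.0, 73.2 and 74.4 TPM in B2. Fbl, fibrillarin, the methyltransferase of the particle, was at 179.9, 175.6 and 168.1 TPM in B2B1, at 141.6, 222.9 and 149.7 TPM in B1 and at 185.1, 173.2 and 187.1 TPM in B2. B2B1 and B2 values overlapped for both genes, and neither was called in a comparison with B2 or between B2B1 and B1. Without B1 library 2, Fbl was called lower in B1 against B2 (log2 fold change −0.32 ± 0.060, limma adjusted p = 0.00281). Nop56 lies on chromosome 2 at 130274430 to 130279313, Nop58 on chromosome 1 at 59684971 to 59719044 and Fbl on chromosome 7 at 28169710 to 28179269 (GRCm38).

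A ratio within a library does not depend on its scaling. Nop56 over Nop58, a pair chosen after its values were seen, was 1.34, 1.45 and 1.42 in B2B1, 1.54, 1.74 and 1.69 in B1, and 2.66, 2.54 and 2.81 in B2. The groups did not overlap, and B1 library 2 lay close to B1 libraries 1 and 3. The means were 1.40 ± 0.06, 1.66 ± 0.11 and 2.67 ± 0.13 (SD, n = 3 libraries each). The exact two-sided permutation p was 0.1 in each of the 3 comparisons, the smallest that 3 against 3 libraries allow. The ratio shows unequal change and not which of the 2 genes changed.

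**Figure D4:**
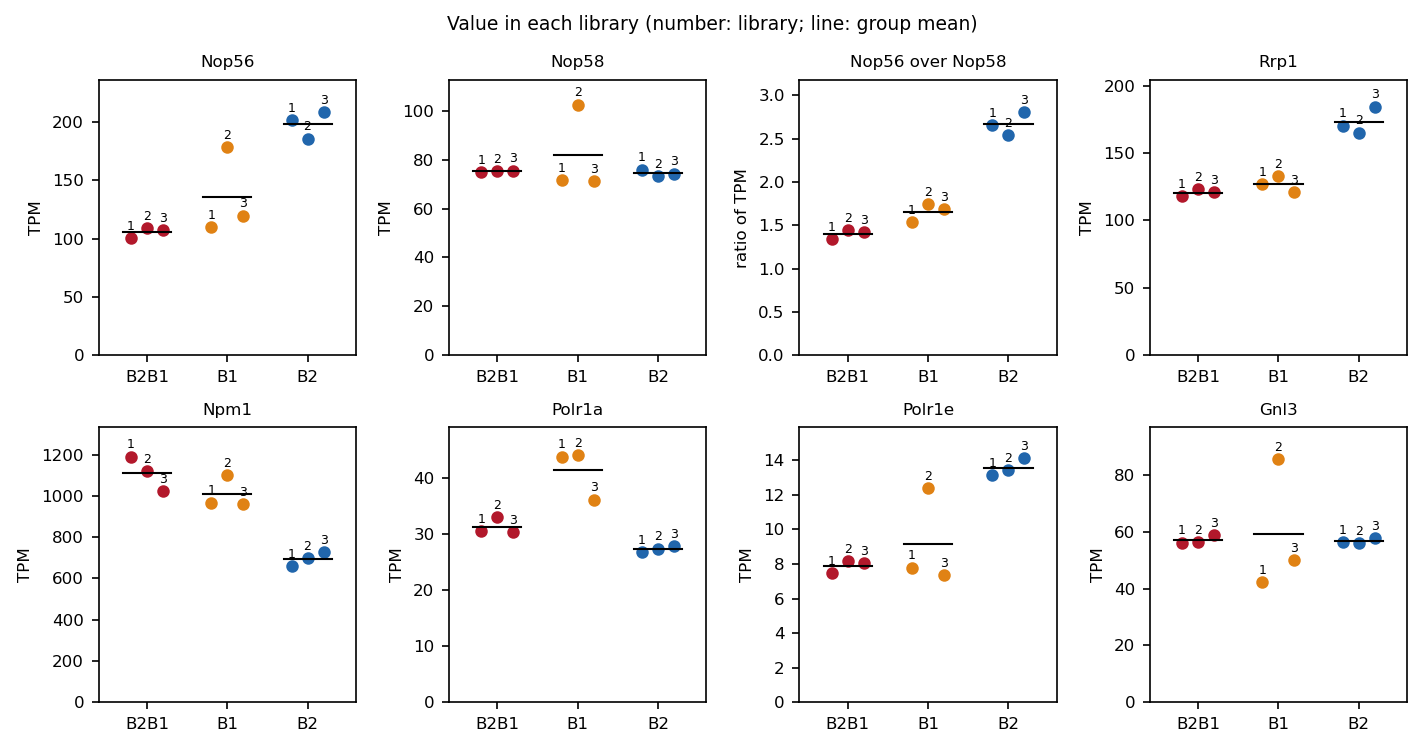
TPM of 7 factors and the ratio of Nop56 to Nop58 in each library of B2B1, B1 and B2 cells, with axes from 0. Points are numbered libraries and lines group means. The ratio separates the 3 groups, with 1.34 to 1.45 in B2B1, 1.54 to 1.74 in B1 and 2.54 to 2.81 in B2, whereas Gnl3 differs mainly between B1 library 2 and the other B1 libraries.

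None of the 4 box H/ACA core proteins was called (log2 fold changes −0.02 to 0.40 in B2B1 against B2 and −0.03 to 0.37 in B1 against B2). Nop10, a small subunit, was at 105.1, 118.3 and 129.3 TPM in B2B1, at 136.8, 137.7 and 116.4 TPM in B1, and at 112.6, 123.3 and 105.3 TPM in B2. Gar1, which helps release the RNA after modification, was at 35.7, 25.3 and 29.2 TPM in B2B1, at 22.8, 41.3 and 27.3 TPM in B1 and at 31.5, 29.5 and 29.6 TPM in B2. The groups overlapped for both. Dkc1, the pseudouridine synthase, and Nhp2 had the highest fold changes of this set. Nhp2 was called higher in B2B1 against B2 without B1 library 2 (0.40 ± 0.079, limma adjusted p = 0.00239), where the full fit gave 0.40 ± 0.159 and an adjusted p of 0.0523.

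The subunits of RNA polymerase I went in different directions. Polr1a, the largest catalytic subunit, was at 30.5, 33.0 and 30.4 TPM in B2B1, at 43.9, 44.2 and 36.2 TPM in B1 and at 26.8, 27.5 and 27.9 TPM in B2. B1 lay above B2B1 and B2B1 above B2, with no overlap. It was higher in B1 than in B2 by 0.57 ± 0.085 (log2, limma adjusted p = 0.000519), or 0.71 relative to the median of all genes. In B2B1 against B2 the difference, 0.19 ± 0.085, did not pass (limma adjusted p = 0.0833), but either rescaling, by median of ratios or by quantiles, gave a call.

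Polr1e, an accessory subunit and at a mean of 10.2 TPM the lowest of the tested members, was at 7.46, 8.16 and 8.05 TPM in B2B1, at 7.79, 12.4 and 7.35 TPM in B1 and at 13.1, 13.4 and 14.1 TPM in B2. B2 lay above both other groups, with B1 library 2 closest to it. It fell in B2B1 (−0.71 ± 0.163, limma adjusted p = 0.00438) and in B1 (−0.55 ± 0.163, adjusted p = 0.0194), the second of which was lost with median-of-ratios scaling and without B1 library 1, B1 library 3 or B2 library 3. Polr1c, a subunit shared with RNA polymerase III, was at 78.9, 71.7 and 75.4 TPM in B2B1, at 63.4, 78.5 and 66.9 TPM in B1 and at 57.6, 60.7 and 69.7 TPM in B2. B2B1 lay above B2 without overlap, and B1 overlapped both. It was higher in B2B1 than in B2 (0.27 ± 0.097, limma adjusted p = 0.0385), a call lost in 9 of 22 alternatives, among them those without B2 library 1 or 2 or B2B1 library 1 or 3. Polr1b did not pass in the full fit (−0.32 ± 0.207 in B2B1 against B2).

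Among 5 abundant nucleolar proteins, Npm1 rose in both peritoneal groups and Nolc1 fell in B2B1. Npm1, nucleophosmin, a histone and ribosome chaperone, was the most abundant member at a mean of 938.5 TPM. It was at 1189.5, 1118 and 1023.5 TPM in B2B1, at 967.5, 1099 and 961.4 TPM in B1 and at 660.4, 699.7 and 727.0 TPM in B2. Both peritoneal groups lay above B2. The log2 fold changes were 0.67 ± 0.078 in B2B1 (limma adjusted p = 8.4e-05) and 0.53 ± 0.078 in B1 (adjusted p = 0.000482), and both calls held under all 22 alternatives. Npm1 lies on chromosome 11 at 33152287 to 33163206 (GRCm38).

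Ddx21, an RNA helicase, was at 110.1, 108.0 and 111.2 TPM in B2B1, at 86.2, 129.7 and 96.4 TPM in B1 and at 103.1, 102.1 and 106.2 TPM in B2. B2B1 lay just above B2 but the difference did not pass (0.08 ± 0.125, limma adjusted p = 0.600). Nolc1, a chaperone of the snoRNA particles, was called lower in B2B1 against B2 (−0.38 ± 0.126, limma adjusted p = 0.0252), and the call was lost with either rescaling, with a sex term, and without B2B1 library 1 or 2 or any 1 B2 library. Ncl, nucleolin, and Mybbp1a were not called in the full fit.

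The small-subunit processome held the most calls of any role. In B2B1 against B2, 5 of 11 members fell and none rose, and in B1 against B2 likewise 5 and none. Each is 45.5%, against 42.0% of all tested genes called lower in B2B1 and 33.9% in B1. Without B1 library 2, 9 fell in B2B1 and 10 in B1, which is 81.8% and 90.9%, against 44.1% and 35.4% of all genes. Heatr1, Utp20, Utp15 and Nop14 were called in both comparisons, Wdr43 in B2B1 and Utp18 in B1. With median-of-ratios scaling no processome member was called lower, whereas that scaling without B1 library 2 called Heatr1 and Utp20 lower in B2B1 and 7 members in B1. The Utp18 call was also lost on leaving out any 1 library but B1 library 2, that of Wdr43 without any 1 library of B2B1 or B2, and that of Utp15 in B2B1 without B2 library 2. In B1 the calls of Nop14 and Heatr1 were lost without B1 library 1 or 3 or B2 library 1 or 3. The median log2 fold change of the 11 was −0.26 in B2B1 and −0.27 in B1.

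Heatr1, a scaffold of the processome, was at 28.4, 29.8 and 26.7 TPM in B2B1, at 25.0, 38.3 and 25.6 TPM in B1 and at 41.6, 39.7 and 42.4 TPM in B2. Utp20, another large scaffold, was at 14.9, 16.2 and 16.0 TPM in B2B1, at 15.1, 19.8 and 14.3 TPM in B1 and at 21.6, 21.9 and 22.4 TPM in B2. Every peritoneal library lay below every B2 library for both genes. Heatr1 changed by −0.53 ± 0.143 in B2B1 (limma adjusted p = 0.0104) and by −0.49 ± 0.143 in B1 (adjusted p = 0.0184). Utp20 changed by −0.46 ± 0.112 (limma adjusted p = 0.00586) and −0.41 ± 0.112 (adjusted p = 0.0131).

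Imp3, which pairs the U3 guide RNA with the precursor, was at 110.0, 123.2 and 117.8 TPM in B2B1, at 134.6, 133.7 and 126.8 TPM in B1, and at 118.7, 126.1 and 113.0 TPM in B2. B1 lay above B2B1 and B2, with a fold change against B2 that did not pass (0.14 ± 0.064, limma adjusted p = 0.0903). Median-of-ratios scaling called it higher in both B1 and B2B1 against B2, although its unscaled change in B2B1 was −0.03 ± 0.064.

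No factor of late 40S maturation was called in the full fit. Nob1, the nuclease that makes the final end of the small-subunit RNA, was at 47.5, 55.9 and 51.7 TPM in B2B1, at 47.9, 75.4 and 51.3 TPM in B1 and at 48.3, 49.4 and 58.9 TPM in B2. The groups overlapped. Rrp12 was called lower in B1 against B2 without B1 library 2 (−0.57 ± 0.097, limma adjusted p = 0.00168), where the full fit gave −0.33 ± 0.181 and an adjusted p of 0.156.

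Of 12 tested factors of 60S assembly, 4 fell in B2B1 (Rrp1, Bop1, Ftsj3 and Nip7) and 2 in B1 (Rrp1 and Bop1), and none rose. These shares, 33.3% and 16.7%, were below the 42.0% and 33.9% of all tested genes. Without B1 library 2 the counts were 7 in B2B1 and 9 in B1, which is 58.3% and 75%, against 44.1% and 35.4% of all genes. The calls of Ftsj3 (−0.39) and Nip7 (−0.28) were lost with either rescaling, that of Ftsj3 also without B2 library 3 or B2B1 library 1 or 2, and that of Nip7 without B2 library 2 or B2B1 library 3. Rrp1, which acts early in large-subunit processing, was at 117.9, 123.4 and 120.9 TPM in B2B1, at 126.9, 132.8 and 120.9 TPM in B1 and at 170.4, 165.1 and 184.6 TPM in B2. B2 lay well above both, with no overlap. The changes were −0.52 ± 0.061 in B2B1 (limma adjusted p = 8.72e-05) and −0.45 ± 0.061 in B1 (adjusted p = 0.000304), and both held under all 22 alternatives. They were −0.32 and −0.31 relative to the median of all genes.

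Bop1, Pes1 and Wdr12 form 1 complex, PeBoW, and did not share a pattern of calls. Bop1 was at 45.0, 47.4 and 48.9 TPM in B2B1, at 43.5, 61.8 and 42.0 TPM in B1 and at 65.0, 59.0 and 65.8 TPM in B2. Wdr12 was at 17.6, 16.9 and 16.1 TPM in B2B1, at 15.6, 22.6 and 17.3 TPM in B1 and at 16.2, 16.4 and 18.1 TPM in B2. For Bop1 all B2B1 libraries lay below B2 and B1 library 2 reached into the B2 range, whereas for Wdr12 the groups overlapped. Bop1 was called lower in B2B1 (−0.42 ± 0.132, limma adjusted p = 0.021) and in B1 (−0.38 ± 0.132, adjusted p = 0.0378). The call in B1 was lost in 12 of 22 alternatives, among them each one that left out a B2 library, and that in B2B1 was lost with either rescaling and without B2 library 1 or 3 or B2B1 library 1. Wdr12 did not pass (−0.00 ± 0.125 in B2B1 against B2, limma adjusted p = 0.986). Pes1 was not called in the full fit.

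Mrto4, a large-subunit assembly factor, did not pass the filter. It was listed at 1.35, 0 and 0 TPM in B2B1, at 0.617, 0 and 0 TPM in B1 and at 0 in all B2 libraries. GENCODE M21 lists 2 pseudogenes of this gene by name. Whether its reads were split between copies was not tested.

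The comparison of B2B1 with B1 cells, which share tissue and strain label, gave fewer differences. Polr1a was lower in B2B1 than in B1 by 0.39 on the log2 scale, with values of 30.4 to 33.0 TPM in B2B1 and 36.2 to 44.2 TPM in B1. It was the only member called (log2 fold change −0.39 ± 0.085, limma adjusted p = 0.0151), 1 lower and 0 higher of 42, against 12.1% lower and 6.93% higher of all tested genes. The call was lost without B1 library 1, with only these 2 groups, with a sex term, and without B2B1 library 1 and B1 library 2 together. With a sex term, 4.50% of all tested genes were called lower and 3.08% higher in this comparison. The median log2 fold change was −0.06 over the members and −0.06 over all genes.

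Leaving out B1 library 2 turned the balance. Then 6 members were called higher in B2B1 than in B1 (Ddx21, Fbl, Gnl3, Nhp2, Rrp12 and Utp18) and Polr1a lower, against 9.17% and 12.8% of all genes, and the median of the members was 0.09. The highest of these was Rrp12, at 0.38 ± 0.097 (limma adjusted p = 0.0284). Gnl3 was higher in B2B1 by 0.31 ± 0.078 (limma adjusted p = 0.0274), where the full fit gave 0.01 ± 0.209.

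Other genes of the pathway gave larger counts of lower calls. Of 122 tested, 9 were higher and 57 lower in B2B1 against B2, which is 46.7% lower, and 4 were higher and 48 lower in B1 against B2, which is 39.3%. Both shares of lower calls were above the background, and both shares of higher calls, 7.38% and 3.28%, were below it. Medians were −0.25 and −0.21. With median-of-ratios scaling the shares of lower calls were below the background too. In B2B1 17 genes were then higher and 28 lower, 23.0% lower against 28.6% of all genes, and in B1 13 were higher and 19 lower, 15.6% lower against 22.9%.

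Surf6, a nucleolar matrix protein of ribosome assembly, was at 26.1, 27.6 and 27.9 TPM in B2B1, at 33.5, 36.6 and 32.2 TPM in B1 and at 57.1, 59.5 and 57.5 TPM in B2. The 3 groups did not overlap, and it changed by −1.07 ± 0.066 in B2B1 (limma adjusted p = 2.01e-06) and −0.75 ± 0.066 in B1 (adjusted p = 2.08e-05). Emg1, a methyltransferase of the small-subunit RNA, was at 104.8, 107.7 and 107.5 TPM in B2B1, at 132.9, 147.5 and 126.6 TPM in B1 and at 180.7, 163.8 and 177.6 TPM in B2. It too was lowest in B2B1, with −0.70 ± 0.068 against B2 and −0.34 ± 0.068 against B1 (limma adjusted p = 2.76e-05 and 0.00966). The Emg1 call against B1 was lost with a sex term. Sdad1 was lower in both against B2 (−0.73 and −0.71).

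Ddx54, an RNA helicase, differed in order, with 85.1, 82.5 and 89.3 TPM in B2B1, 55.3, 68.3 and 54.8 TPM in B1 and 108.3, 102.5 and 106.4 TPM in B2. It was lowest in B1 (−0.83 ± 0.086 against B2, limma adjusted p = 6.09e-05), and B2B1 lay above B1 by 0.52 ± 0.086 (adjusted p = 0.00401). Ubtf, which recruits RNA polymerase I to ribosomal DNA, was at 128.7, 127.4 and 116.7 TPM in B2B1, at 86.3, 99.9 and 93.7 TPM in B1 and at 95.2, 74.6 and 86.9 TPM in B2. It was higher in B2B1 than in B2 (0.54 ± 0.095, limma adjusted p = 0.00101) and than in B1 (0.41 ± 0.095, adjusted p = 0.0185). Polr1d, another polymerase I subunit, chosen after its values were seen, was also called higher in B2B1 against B2 and B1 (0.50 and 0.31). Tcof1, the treacle protein (−0.51 and −0.34), and the initiation factor Rrn3 (−0.36 and −0.33) were lower in B2B1 than in B2 and B1. These 4 were the only ones of 12 other polymerase I genes called in B2B1 against B1. The calls of Rrn3 in both were lost with either rescaling, and against B1 also without B1 library 2 or 3 or B2B1 library 1. That of Tcof1 against B1 was lost without any 1 library of B2B1 or B2, and that of Ubtf without B2B1 library 1 or 2 or B1 library 1. With a sex term, the calls of Rrn3, Tcof1 and Ubtf against B1 were all lost. Those of Rrn3 and Tcof1 were also lost with only B2B1 and B1 in the fit.

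The exosome cofactors Mphosph6 and C1d were higher in B2B1 than in B2 (0.57 and 0.56) and than in B1 (0.35 and 0.33). C1d was also called in B1 against B2 (0.23), a call lost with a sex term and without B1 library 2 or 3 or B2 library 1 or 3. For B2B1 against B1, the calls of both genes were lost without B2B1 library 1 or B1 library 3. They were also lost with a sex term and with only B2B1 and B1 in the fit. That of C1d was lost without B2B1 library 3 or B1 library 1 too. Nsa2, of large-subunit assembly, and Wdr3, of the processome, were the highest called in B1 against B2, at 0.40 and 0.28. In B2B1 against B1, 5 of the 122 genes were higher and 6 lower, which is 4.10% and 4.92%, against 6.93% and 12.1% of all tested genes.

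Myc, the transcription factor that drives many of these genes, was at 100.8, 146.5 and 100.3 TPM in B2B1, at 148.6, 240.9 and 197.7 TPM in B1 and at 48.7, 76.7 and 76.1 TPM in B2. Every peritoneal library lay above every B2 library, and B1 lay above B2B1. Myc was higher in B1 by 1.53 ± 0.234 (log2, limma adjusted p = 0.000613) and in B2B1 by 0.79 ± 0.234 (adjusted p = 0.0163). The second call was lost without B2 library 1 or B2B1 library 2. Of the members, 4.76% were called higher in each group, against 18.0% of all tested genes in B1 and 21.0% in B2B1. B1 library 2 had the highest Myc value of the 9 and a member mean of 5.99. The next highest was B1 library 3, at 197.7 TPM and a member mean of 5.55. The part of Myc in the members' levels was not tested.

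The other genes of the Myc network did not move one way. Max, the partner of Myc, was at 75.2, 87.0 and 89.5 TPM in B2B1, at 93.0, 102.4 and 89.6 TPM in B1 and at 118.8, 120.2 and 119.0 TPM in B2. It fell in B2B1 (−0.51 ± 0.078, limma adjusted p = 0.000432) and in B1 (−0.33 ± 0.078, adjusted p = 0.0066), a call lost in B1 with median-of-ratios scaling. The Max-binding repressors Mxd1, Mxi1 and Mxd4 were higher in B2B1 against B2 (0.58, 0.50 and 0.23) and in B1 against B2 (0.69, 0.65 and 0.59). The Mxd4 call in B2B1 was lost without B2 library 2 or 3 or B2B1 library 2 or 3. Of 10 network genes tested, 5 were higher and 4 lower in B2B1 against B2, and 4 were higher and 1 lower in B1 against B2. In B2B1 that is 50% and 40%, against 21.0% and 42.0% of all tested genes. In B1 it is 40% and 10%, against 18.0% and 33.9%. Mxd3 was the further higher one in B2B1 (1.23), a call lost in 11 of 21 alternatives, and Mlxip, Max, Mlx and Mga were the lower ones (−0.83, −0.51, −0.22 and −0.17). The calls of Mlx and Mga were lost with either rescaling and without any 1 library of B2B1 or B2, and Mga had values above 0 after rescaling.

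Proliferation genes were higher in B2B1 than in B2 for 8 of 18 tested and lower for 1, and in B1 against B2 for 1 and 1. In B2B1 that is 44.4% and 5.56%, against 21.0% and 42.0% of all tested genes. In B1 it is 5.56% each way, against 18.0% and 33.9%. Mki67 and Top2a rose in B2B1 (2.63 ± 0.608 and 2.16 ± 0.563, limma adjusted p = 0.00461 and 0.00849) and did not pass in B1 (1.40 and 1.14, adjusted p = 0.0813 and 0.119).

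Markers of other cells were counted beside these results. The 7 B cell markers summed to 8669 to 9990 TPM in B2B1, 8743 to 10867 TPM in B1 and 10046 to 10280 TPM in B2. Macrophage markers summed to 68.3 to 266.7 TPM in B2B1, 21.4 to 50.1 TPM in B1 and 1.59 to 2.67 TPM in B2, and all 5 tested were higher in B2B1 than in B2, whereas Emr1 was the 1 called in B1. NK cell markers summed to at most 0.619 TPM and neutrophil, mast cell and eosinophil markers to at most 1.82 TPM. Msln and Upk3b, which define mesothelium, were at 0 in every group. The whole mesothelium and stroma list summed to 48.6 to 71.1 TPM in B2B1, 57.3 to 82.7 TPM in B1 and 84.5 to 96.3 TPM in B2. Nearly all of this was Pecam1, the only gene of that list to pass the filter. The erythroid list summed to at most 9.89 TPM. Dendritic cell markers summed to 1.44 to 1.69 TPM in B2B1, 1.33 to 1.57 TPM in B1 and 15.7 to 17.5 TPM in B2. T cell markers summed to 814 to 897 TPM in B2B1, 743 to 905 TPM in B1 and 284 to 334 TPM in B2. Cd2 made up most of these sums, at 789 to 871 TPM in B2B1, 711 to 879 TPM in B1 and 271 to 321 TPM in B2. The sums thus follow Cd2 and are no measure of T cells, and which cells its transcripts came from was not tested. The median log2(TPM + 1) of the 5 tested T cell markers was 1.57 to 2.62 in B2B1, 3.09 to 3.55 in B1 and 2.38 to 2.96 in B2. Of the 5 T cell markers tested, Cd3g, Cd2 and Lck were called higher in B1 against B2. Cd2 and Lck were called higher in B2B1 against B2. In B2B1 against B1, Cd3g and Cd3d were called lower and Lck higher, which the sums do not show. Plasma cell markers summed to 305 to 388 TPM in B2B1, 234 to 311 TPM in B1 and 158 to 180 TPM in B2. The part of the macrophage and other markers in the results was not tested. B2B1 libraries 1 and 2 and B2 library 2, but no B1 library, had transcripts of the Y-linked Ddx3y and little Xist. In each library 10711 to 10945 genes reached 1 TPM.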

How the data were processed

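RNA was measured by RNA-seq in 9 libraries, 3 per group. Per the labels' protocols, polyA RNA was isolated with an RNeasy micro kit and made into libraries with a TruSeq kit. The tools named are CASAVA 1.8.2 and kallisto, and the build mm10, per the submitters' processing notes. No version of kallisto and no transcript set is stated. The authors deposited TPM per gene, which keep no counts, so no counting interval can be given. A second, smaller table was not used.

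One limma model over the 9 libraries was fitted to log2(TPM + 1) of the 11099 genes averaging 1 TPM or more (R 4.3.3, limma 3.58.1, eBayes with trend, prior degrees of freedom 2.92). Fold changes on this scale understate those of low genes. P-values are two-sided and Benjamini-Hochberg adjusted within a comparison, with calls under 0.05. The fit was tested on simulated data. No pair of libraries was identical (0 of 36).

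The members and lists were chosen with earlier results of these data known. Library values are given, per comparison, for the 6 highest and 6 lowest called members and, per role, for the most abundant member and the one closest to 0 in B2B1 against B2; for other pathway genes, the 3 highest and 3 lowest called; members below the filter, Myc, Max, network genes called in B2B1 against B2, Mki67 and Top2a were named too. Alternatives changed the pseudocount, filter, scaling, trend, weights and libraries used, or added the replicate number or the sex read from Xist and Ddx3y as a term. Gnl3, Nop56 over Nop58 and members called without B1 library 2 were chosen after their values were seen. Promoters came from RefSeq (GRCm38.p6) and coordinates from GENCODE M21. Figures used Python 3.11.15 and matplotlib 3.10.9.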

Additional observations from a re-analysis of the deposited data

How the results depend on the processing

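Across 22 alternatives, 3818 single-gene values kept their call or lack of one, 227 lost a call and 171 gained one. The sign changed in 228, of which 223 were called in neither fit and 5 in at least 1. These 5 were Imp3 in B2B1 against B2 with median-of-ratios scaling (0.18, and 0.18 without B1 library 2 as well) and Mga with the same settings (0.034 and 0.035) or quantile normalization (0.028). Fits that pool the spread assume that a lone sample or smaller group varies like the others. Depth is unknown, and 3 libraries a group limit precision.

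For B1 against B2, members called higher became 7 with median-of-ratios scaling, 7 with quantile normalization and 6 with median-of-ratios scaling without B1 library 2. These are 16.7%, 16.7% and 14.3% of the members, against 24.9%, 22.3% and 25.2% of all genes. Members called lower became 2, 3, and 16 with library weights, and 27 without B2B1 library 1 and B1 library 2, where the median was −0.26. In that order these are 4.76%, 7.14%, 38.1% and 64.3%, against 22.9%, 25.8%, 37.8% and 37.2% of all genes. Other pathway genes called higher became 13 with median-of-ratios scaling, with or without B1 library 2, and 12 with quantile normalization, and lower 19, 22, and 75 without both libraries. Leaving out 1 library gave 2 to 4 members higher, 4 to 27 lower, a median of −0.26 to 0.016, and 2 to 6 other genes higher and 29 to 71 lower.

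For B2B1 against B2, members called higher became 7 with median-of-ratios scaling, 5 with quantile normalization, 5 with only the 2 groups, and 1 with no filter, no trend or a sex term. Members called lower became 3, 4, 21 with only the 2 groups, and 19 without both libraries. In that order these are 7.14%, 9.52%, 50% and 45.2%, against 28.6%, 31.9%, 43.8% and 43.1% of all genes. Other genes became 17 higher and 28 lower with median-of-ratios scaling and 31 lower with quantile normalization. The members' median became 0.0026 and −0.014. Median-of-ratios scaling without B1 library 2 gave 14 and 7 members, 26 and 34 other genes and a median of 0.0038. Leaving out 1 library gave 1 to 4 members higher and 8 to 21 lower.

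For B2B1 against B1, members called higher became 6 without both libraries (median 0.11), and 6 with median-of-ratios scaling without B1 library 2 (median 0.13). Each is 14.3% of the members, against 7.80% and 11.2% of all genes. Members called lower became 0 with only the 2 groups, with a sex term and without both libraries, against 6.14%, 4.50% and 11.7% of all genes. Other genes called higher became 8 with median-of-ratios scaling, 2 with the 2 groups, 1 with a sex term, 10 without both libraries and 17 with median-of-ratios scaling without B1 library 2, and lower 3, 1, 0 and, for the last, 2. Leaving out 1 library gave 0 to 6 members higher and 0 to 1 lower, and 1 to 14 other genes higher and 3 to 5 lower. The cause of these shifts was not tested.

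Replicate numbers did not pair the libraries: over 9 same-numbered pairs the correlation of deviations from group means ran from −0.06 to 0.12, with 1 over 0.1, and 1 of 9 libraries correlated best with its own number. With the replicate number as a block, other genes called higher in B1 against B2 became 2 and members called higher in B2B1 against B2 became 1, and the counts of members called lower were 8 and 12.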
